A study of Mus musculus with 9 samples.

Results

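The genes described here encode the coreceptor and the intracellular components that carry a canonical Wnt signal: *Lrp6*, *Dvl1*, *Dvl2*, *Dvl3*, *Axin1*, *Axin2*, *Apc*, *Gsk3a*, *Gsk3b* and *Ctnnb1*. They were chosen by name, from their place in the pathway, with earlier results of these data known. Every RefSeq transcript row of each gene was taken, summed per gene and also read row by row. This gave 10 genes of the 18555 protein-coding genes with a count, and 37 transcript rows of the 107384 in the table. All 10 genes passed the filter on low values, which kept 15263 genes for testing, and 36 of the 37 rows had a count in at least 1 library. The question was whether their mRNAs were recovered with cytoplasmic CELF2 above an IgG control and above the starting RNA.

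Canonical Wnt signaling turns on the stability of β-catenin, the product of *Ctnnb1*. Without ligand, a destruction complex built on the scaffolds AXIN and APC holds β-catenin for phosphorylation by GSK3, which marks it for degradation. When a Wnt ligand binds Frizzled and LRP6 at the membrane, Dishevelled proteins recruit AXIN to the receptors and the complex is inhibited, so that β-catenin accumulates and enters the nucleus. In the developing cortex the pathway is known for its roles in progenitor proliferation, axon growth and synapse formation.

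In RNA immunoprecipitation-sequencing (RIP-seq), an antibody pulls down an RNA-binding protein and the RNA recovered with it is sequenced. Here 3 CELF2 RIPs (rabbit anti-CELF2 antibody), 3 IgG RIPs (normal rabbit IgG) and 3 input samples (an aliquot kept before the antibody step) were made from cortices of mice at postnatal day 0. All 9 libraries came from the cytoplasmic fraction and from mice heterozygous for the *Celf2* p.R493H knockin (KI) allele, with no further treatment. The labels call the replicates biological but do not say how many animals entered each, so p-values measure the spread between these libraries. No wild-type library was part of the comparison, so the values describe the KI cortex only. The labels list neurons, radial glia, astrocytes, oligodendrocyte precursors, microglia and endothelial cells in the lysate, and in such bulk material fewer cells of a type and less RNA per cell cannot be told apart.

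Protein-coding genes received 13519246 to 16836302 estimated counts in the CELF2 RIPs, 9344255 to 14960822 in the IgG RIPs and 55229664 to 78483566 in the inputs, so the input levels carry the smallest counting error. rRNA transcripts held 11.0% to 35.0% of all counts in the IgG RIPs, and at most 1.78% in the CELF2 RIPs and 2.28% in the inputs. The summed level of 5 excitatory neuron markers was 1122 to 1408 CPM (counts scaled to a common library size) in CELF2 RIP, 554 to 693 in the IgG RIPs and 645 to 788 in the inputs. For 5 inhibitory neuron markers the sums were 522 to 596, 310 to 363 and 420 to 443 CPM in the same order. The sum of 5 radial glia markers lay at 123 to 167 CPM in CELF2 RIP, 299 to 344 in the IgG RIPs and 360 to 378 in the inputs, and that of 4 erythroid markers at 73.7 to 77.1, 282 to 451 and 709 to 916 CPM. Sums for 4 astrocyte markers (519 to 895, 434 to 483 and 724 to 936 CPM), 4 oligodendrocyte precursor markers (543 to 647, 537 to 557 and 468 to 537 CPM), 4 of 5 microglia markers (89.4 to 122, 44.6 to 59.9 and 79.9 to 104 CPM) and 4 endothelium markers (143 to 209, 123 to 279 and 158 to 251 CPM) overlapped between CELF2 RIP and at least 1 control. *P2ry12*, a microglia marker, had counts but did not pass the filter. The sums hide differences within a list. Over IgG RIP and input, the log2 change was 2.21 and 1.50 for the excitatory marker *Slc17a7* but −0.14 and −0.64 for *Neurod6*. Among radial glia markers it was −2.15 and −2.69 for *Vim* but 0.16 and 0.02 for *Pax6*. The other markers of both lists lay between these. The part of the marker differences in the results below was not tested.

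The 10 genes did not share a direction in CELF2 RIP. *Gsk3b*, a kinase of the destruction complex, was the only one called higher than both IgG RIP and input. *Apc* and *Lrp6* were called higher than input but not than IgG RIP, and *Dvl1* was called lower than IgG RIP. Calls required 2-fold or more together with an FDR below 0.01, from edgeR's quasi-likelihood test over all 15263 genes. Over IgG RIP, 1 of the 10 genes was called higher and 1 lower, where 13.4% and 13.5% of all tested genes were. In 5 of the 10 genes all 3 CELF2 RIP libraries lay above all 3 IgG RIPs, and in 2 they lay below (30.0% and 27.4% of all tested genes). Without regard to size, 4 rose and 2 fell past the FDR, compared with 22.9% and 19.2% of all genes. Over input, 3 of the 10 were called higher (14.6% of all tested genes) and 0 lower (15.5%), with 0 lower also at an unadjusted p under 0.05 and 0 in DESeq2's Wald test. The Wald test called 2826 of all tested genes lower than input. Past the FDR at any size were 5 higher and 0 lower (26.8% and 20.1% of all genes), and in 6 genes all CELF2 RIPs lay above all inputs and in 0 below them, against 42.1% and 31.8% of all genes. Higher than both controls was 1 of the 10, against 7.58% of all tested genes. With 10 genes these counts are small, and none was read as particular to them. Their median log2 change over IgG RIP was 0.39, where that of all tested genes was −0.06, and over input the medians were 0.50 and 0.19. Both sets of changes use the same CELF2 RIP libraries. Scaling by total counts moved the median of all genes to −0.42 over IgG RIP and −0.27 over input, and the calls over IgG RIP among all genes from 2050 higher and 2066 lower to 937 and 3421. Scaling shifts all genes by nearly the same amount, so a change taken relative to the median of all genes stays put by construction. Across 4 scalings these relative changes over IgG RIP were 1.82 to 1.85 for *Gsk3b*, 0.91 to 0.92 for *Lrp6* and −2.56 to −2.55 for *Dvl1*. From TMM to total counts the changes themselves went from 1.80 to 1.39, 0.86 to 0.48 and −2.61 to −2.99, in the same order.

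**Figure D1:**
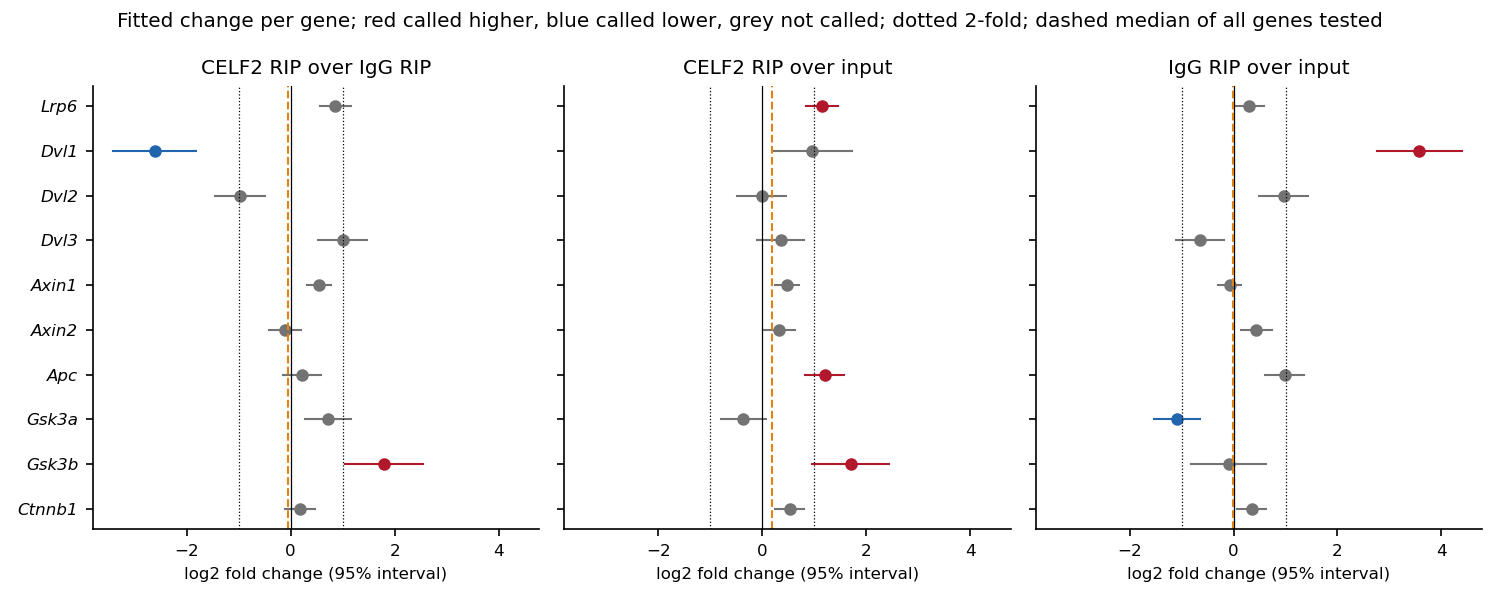
Fitted log2 fold change of each gene (points) with its 95% interval (bars) in CELF2 RIP over IgG RIP, CELF2 RIP over input and IgG RIP over input, with 3 libraries per group. Red points were called higher and blue points lower, dotted lines mark a 2-fold change and the dashed line marks the median of all tested genes. *Gsk3b* is red in both comparisons of CELF2 RIP, and *Dvl1* lies at −2.61 over IgG RIP beside 3.58 for IgG RIP over input.

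*Lrp6* encodes the single-pass membrane coreceptor that binds Wnt ligands together with Frizzled. It spans chromosome 6, 134446476 to 134566913 (GRCm38). Its level was 276, 403 and 363 CPM in CELF2 RIP replicates 1, 2 and 3, 200, 189 and 184 CPM in the IgG RIPs, and 147, 163 and 158 CPM in the inputs. Every CELF2 RIP library was above every control library, a separation also found for *Axin1* and *Gsk3b* and for 25.2% of all tested genes. The log2 change was 1.15 over input (SE 0.14, edgeR FDR 5.87e-05), a call. Over IgG RIP it was 0.86 (SE 0.14, edgeR FDR 0.000411), which passed the FDR but stayed under 2-fold. Without CELF2 RIP replicate 1 the change over IgG RIP was 1.004 and was called. Without input replicate 1 the change over input was 0.998, just under 2-fold, and the call was lost. The call over input was made in 5 of 9 other settings and was lost with total counts (0.68), upper quartile (0.91), only the compared groups in the fit (0.92) and a test against 2-fold itself.

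The 3 Dishevelled genes encode the cytoplasmic adaptors that pass the signal from the receptors to AXIN, and they did not share a direction. *Dvl1* (chromosome 4, 155847402 to 155859303) was at 13.4, 14.3 and 5.36 CPM in CELF2 RIP, 88.6, 67.7 and 47.3 CPM in the IgG RIPs, and 4.66, 6.90 and 5.48 CPM in the inputs. The IgG RIPs stood far above the other 6 libraries, and CELF2 RIP overlapped with input. The log2 change of CELF2 RIP over IgG RIP was −2.61 (SE 0.36, edgeR FDR 0.000165), at the 0.983rd percentile of all tested genes. Over input, the change in CELF2 RIP was 0.96 (SE 0.35, edgeR FDR 0.0347) and was not called. IgG RIP over input gave 3.58 (SE 0.37, edgeR FDR 0.000167), an 11.9-fold difference, at the 99.9th percentile. In IgG RIP over input, 1 of the 10 genes was called higher and 1 lower, against 6.79% and 5.01% of all tested genes, and all 3 IgG RIPs lay above all inputs in 6 and below them in 3 (27.1% and 29.4%). These comparisons share their libraries, so a high IgG level enters both. *Dvl1* overlaps the taste receptor gene *Tas1r3* by 36 bases, and *Tas1r3* was at 6.56, 7.78 and 6.61 CPM in CELF2 RIP, 28.7, 26.3 and 9.68 CPM in the IgG RIPs, and 3.04, 3.29 and 3.59 CPM in the inputs. The part of that overlap in the *Dvl1* values was not tested.

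*Dvl2* (chromosome 11, 70000592 to 70010109) was at 31.2, 22.4 and 23.5 CPM in CELF2 RIP, 64.4, 51.7 and 35.1 CPM in the IgG RIPs, and 25.5, 24.7 and 27.5 CPM in the inputs. CELF2 RIP was below IgG RIP in all 3 libraries and spanned the input values. Its log2 change was −0.97 over IgG RIP (SE 0.22, edgeR FDR 0.00347), just under 2-fold, and −0.01 over input (SE 0.21, 95% interval −0.49 to 0.47). It was called lower than IgG RIP in 7 of 9 other settings and without 5 of the 9 libraries in turn, all of which moved the change past 2-fold. *Dvl3* (chromosome 16, 20516949 to 20534013) went the other way, at 43.9, 31.6 and 57.4 CPM in CELF2 RIP, 21.2, 26.0 and 19.4 CPM in the IgG RIPs, and 33.8, 33.0 and 36.7 CPM in the inputs. Its CELF2 RIP libraries were above all IgG RIPs and overlapped with input. The log2 change over IgG RIP was 0.999 (SE 0.21, edgeR FDR 0.00233), which missed 2-fold, and over input it was 0.36 (SE 0.20, 95% interval −0.10 to 0.81). *Dvl3* was called higher than IgG RIP without CELF2 RIP replicate 1 (1.01), CELF2 RIP replicate 2 (1.19) or IgG RIP replicate 2 (1.14), and in 0 of the 9 other settings.

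**Figure D2:**
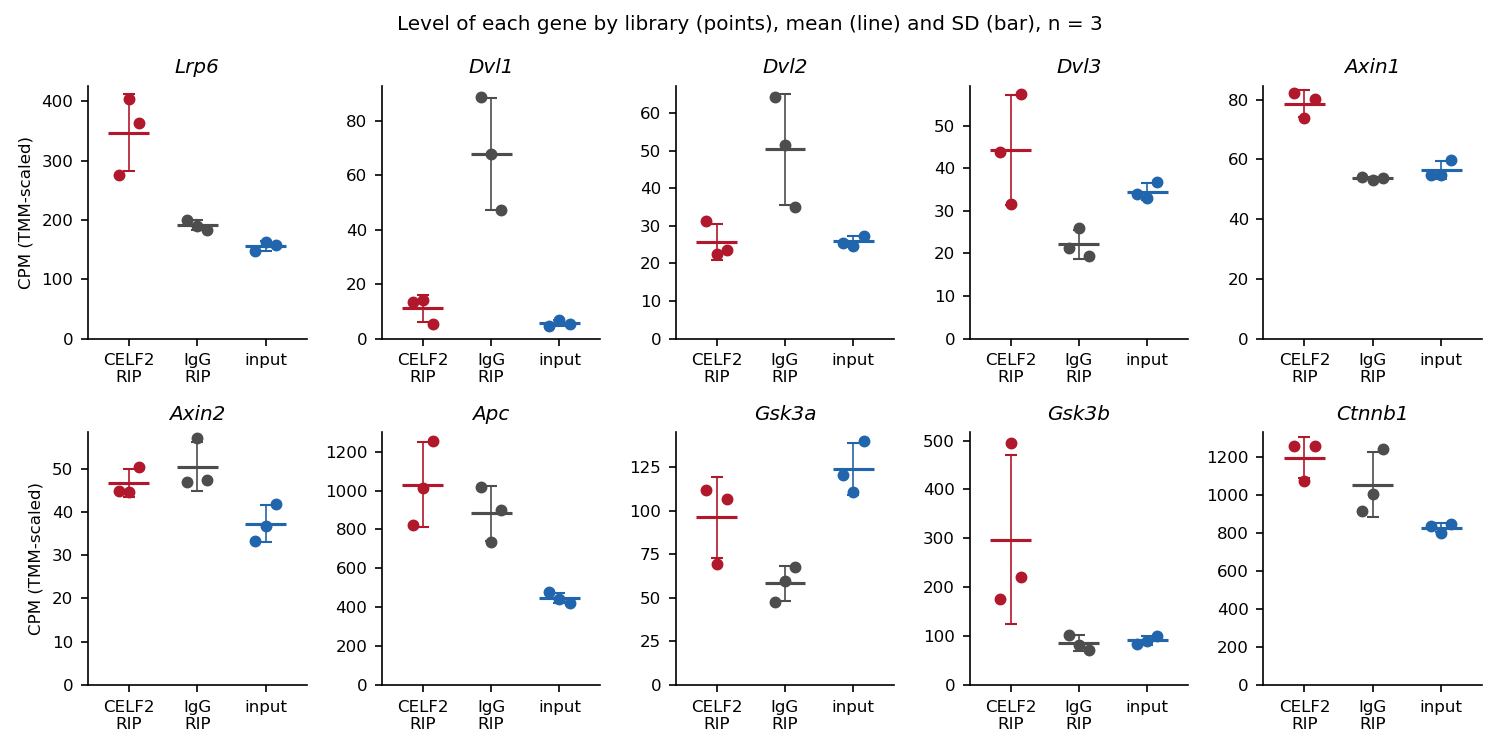
Level of each gene in CPM on the TMM-scaled library size, with a panel and a linear axis from 0 for each gene; points are libraries, lines group means and bars the SD (n = 3). *Gsk3b* in CELF2 RIP ranges from 175 to 495 CPM, all above its 6 control libraries, while the 3 IgG RIPs of *Dvl1* lie between 47.3 and 88.6 CPM, above its other 6 libraries.

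None of the 3 scaffold genes of the destruction complex was called higher than IgG RIP. *Axin1*, whose product limits the amount of complex that can form, is at chromosome 17, 26131217 to 26195811. It was at 82.1, 73.7 and 80.3 CPM in CELF2 RIP, 54.0, 53.2 and 53.9 CPM in the IgG RIPs, and 54.8, 54.8 and 60.0 CPM in the inputs. All CELF2 RIPs were above all 6 controls, in a narrow range. The log2 changes of 0.55 over IgG RIP (SE 0.10, edgeR FDR 0.0011) and 0.48 over input (SE 0.10, edgeR FDR 0.0022) passed the FDR without reaching 2-fold. *Axin2* (chromosome 11, 108917828 to 108950783) encodes a related scaffold and is a feedback target that β-catenin itself induces. Its level was 44.9, 44.6 and 50.4 CPM in CELF2 RIP, 46.9, 57.1 and 47.4 CPM in the IgG RIPs, and 33.3, 36.6 and 41.8 CPM in the inputs. CELF2 RIP and IgG RIP overlapped, with a log2 difference of −0.11 (SE 0.14, 95% interval −0.41 to 0.19), and both lay above input in every library. The change over input was 0.32 for CELF2 RIP (SE 0.13, edgeR FDR 0.0594) and 0.44 for IgG RIP (SE 0.13, edgeR FDR 0.0267).

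*Apc*, on chromosome 18, encodes the large scaffold that binds β-catenin and microtubules. It was at 821, 1011 and 1257 CPM in CELF2 RIP, 1016, 734 and 901 CPM in the IgG RIPs, and 476, 443 and 421 CPM in the inputs. Both kinds of RIP lay above every input library and overlapped with each other. CELF2 RIP was called higher than input, with a log2 change of 1.20 (SE 0.17, edgeR FDR 0.000162), and IgG RIP had a change of 0.98 (SE 0.17, edgeR FDR 0.00159), just under 2-fold. Between CELF2 RIP and IgG RIP the difference was 0.22 (SE 0.17, 95% interval −0.15 to 0.59). The call over input was made without each library in turn and in 5 of 9 other settings. It was lost with total counts (0.74), with upper-quartile scaling (0.96), with only the groups compared in the fit (0.97) and with a test against the 2-fold threshold.

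The 2 kinases of the complex, products of *Gsk3a* and *Gsk3b*, phosphorylate many of the same substrates. *Gsk3b* (chromosome 16, 38089001 to 38246084) was at 175, 495 and 220 CPM in CELF2 RIP, 103, 82.3 and 71.3 CPM in the IgG RIPs, and 83.8, 89.4 and 100.2 CPM in the inputs. All 3 CELF2 RIPs were above all 6 controls, and replicate 2 was far above the others. The mean was 297 ± 173 CPM (SD, n = 3) in CELF2 RIP, 85.4 ± 15.9 CPM in the IgG RIPs and 91.1 ± 8.30 CPM in the inputs. Log2 changes were 1.80 over IgG RIP (SE 0.34, edgeR FDR 0.00115) and 1.70 over input (SE 0.33, edgeR FDR 0.00133), a 3.47-fold and a 3.26-fold difference. IgG RIP and input differed by −0.09 (SE 0.33, 95% interval −0.82 to 0.63). Without CELF2 RIP replicate 2 the changes were 1.21 over IgG RIP and 1.12 over input and were still called. With a test against the 2-fold threshold itself, the call was lost in both comparisons.

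*Gsk3a* (chromosome 7, 25228258 to 25237851) was at 112, 69.6 and 107 CPM in CELF2 RIP, 47.6, 59.6 and 67.7 CPM in the IgG RIPs, and 120.2, 111 and 140.1 CPM in the inputs. CELF2 RIP was above IgG RIP in every library, by a narrow margin in replicate 2, and overlapped with input. IgG RIP was below input, with a log2 change of −1.09 (SE 0.20, edgeR FDR 0.00218), a call. CELF2 RIP over IgG RIP gave 0.72 (SE 0.20, edgeR FDR 0.0102) and CELF2 RIP over input −0.37 (SE 0.19, edgeR FDR 0.128). The call of IgG RIP below input was lost without IgG RIP replicate 1 (−0.96) and without input replicate 3 (−0.99).

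*Ctnnb1* (chromosome 9, 120933400 to 120960507), which encodes β-catenin, was at 1261, 1073 and 1259 CPM in CELF2 RIP, 915, 1005 and 1245 CPM in the IgG RIPs, and 840, 801 and 848 CPM in the inputs. CELF2 RIP overlapped with IgG RIP and was above every input library. Its log2 change was 0.18 over IgG RIP (SE 0.13, 95% interval −0.10 to 0.47) and 0.53 over input (SE 0.13, edgeR FDR 0.00481), under 2-fold in both. The upper end of the interval over IgG RIP lies below the 2-fold threshold, so a 2-fold rise is outside it. With scaling by total counts or upper quartile the difference over IgG RIP changed sign for *Ctnnb1* (−0.18 and −0.08) and for *Apc* (−0.15 and −0.04).

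The estimated counts were deposited per transcript, and rows of a gene that share most of their sequence are split by the quantifier, so the row values are uncertain where rows overlap. Of the 37 rows, 25 passed the filter. Over IgG RIP, 2 were called higher and 1 lower, against 3.19% and 3.14% of all 39129 rows tested, and 7 had an unadjusted p under 0.05 (28.4% of all rows). Over input, 0 rows of these genes were called higher and 0 lower by edgeR, against 0.940% and 4.51%, and 6 had an unadjusted p under 0.05, compared with 25.4% of all rows. For *Ctnnb1*, the log2 changes over IgG RIP were −0.08 for NM_001165902.1 and 0.01 for NM_007614.3, beside 0.18 for the gene sum. Rows were scaled apart from the gene sums, so row and gene changes are not on the same scale. *Dvl2*, which has only 1 row, changed over IgG RIP by −1.19 as a row and −0.97 as a gene sum. Over input its changes were −0.48 and −0.01. For *Apc*, called over input as a gene sum, the curated row NM_007462.3 changed over input by 0.60 (SE 0.13, edgeR FDR 0.022). It held 50.3% to 65.8% of the gene's counts in CELF2 RIP. The predicted row XM_006525532.3 changed by 2.46 (SE 0.55, edgeR FDR 0.0236). XM_006525533.2, XM_006525534.3 and XM_006525539.2 changed by 0.92, −0.03 and 0.12, and none of these *Apc* rows was called.

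For *Gsk3b*, the curated transcript NM_019827.6 had 1909, 3678 and 2467 estimated counts in CELF2 RIP, 1609, 804 and 995 in the IgG RIPs, and 5234, 7996 and 6181 in input. It was called higher than IgG RIP, with a log2 change of 1.14 (SE 0.21, edgeR FDR 0.00887). That call was made in 0 of 3 other settings, and when each of the 9 libraries was dropped in turn it held in 1 fit, that without CELF2 RIP replicate 1. The predicted transcript XM_006522426.3 had 283, 2750 and 0.00116 counts in CELF2 RIP, 31.8, 26.1 and 0 in the IgG RIPs, and 37.9, 117 and 10.3 in input. Most of its counts thus came from CELF2 RIP replicate 2, the library with the highest *Gsk3b* sum, and its test over IgG RIP was not called (edgeR FDR 0.179). Over input, NM_019827.6 was not called as a row (log2 change 0.78, SE 0.20, edgeR FDR 0.0444). In the fit of gene sums with curated rows only, *Gsk3b* rests on that same row, on another scaling. It was called there higher than both controls, with changes of 1.23 over IgG RIP and 1.25 over input. For *Lrp6*, the curated row NM_008514.4 changed by 0.80 over IgG RIP (SE 0.13, edgeR FDR 0.00688), under 2-fold, and the predicted row XM_006505657.3 by 0.20 (SE 0.21). Over input, where the gene sum was called, these rows changed by 0.84 (SE 0.13, edgeR FDR 0.00628) and 0.23 (SE 0.21, edgeR FDR 0.626). Neither row was called.

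The curated *Dvl1* transcript NM_010091.4 was listed at 0 in all 9 libraries, and the gene's counts fell on predicted rows. The largest of these, XM_006538522.3, had 79.1, 109.7 and 60.1 counts in CELF2 RIP, 738, 364 and 345 in the IgG RIPs, and 265, 403 and 315 in input. It was called lower in CELF2 RIP than in IgG RIP, with a log2 change of −2.64 (SE 0.31, edgeR FDR 0.00168; called without each library in turn, not with a replicate block), and higher in IgG RIP than in input, with 2.70 (SE 0.31, edgeR FDR 0.00407). The row XM_006538519.3 had 677, 319 and 157 counts in the IgG RIPs, 0, 47.2 and 0 in CELF2 RIP, and 0, 201 and 23.4 in the deeper inputs. Both of these rows thus held most of their RIP counts in IgG RIP.

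*Axin1* held the other row called higher, the predicted XM_006523516.2, with 122, 51.6 and 25.1 counts in CELF2 RIP, 0.0870, 0 and 0 in the IgG RIPs, and 171, 295 and 126 in input. Its mean level in CELF2 RIP was 5.33 ± 3.93 CPM (SD, n = 3), on the library sizes of the gene sums. This was 22.8-fold a floor of 3 counts per library in IgG RIP, and 13.3-fold without CELF2 RIP replicate 1. The floor covers counting error only, not the split of counts between rows. The call was made in 2 of 3 other settings, and when each of the 9 libraries was dropped in turn it held in 1 fit, that without IgG RIP replicate 3. The row was not called over input (log2 change 0.55, edgeR FDR 0.803). Another predicted *Axin1* row, XM_006523515.3, had 64.7, 101 and 146 counts in CELF2 RIP and 265, 212 and 73.5 in IgG RIP, so the counts of the gene were divided differently between rows in the libraries. For *Axin2*, XM_006532060.1 had 296 counts in IgG RIP replicate 3 and at most 0.0141 in any other library. A test of each row against the other rows of its gene covered 23 rows of 8 of these genes and called 0 at an FDR under 0.01 (0.718% of all rows tested) with edgeR's diffSpliceDGE, and 2 had an unadjusted p under 0.05 (11.7% of all rows). These were XM_006523516.2 of *Axin1* (FDR 0.0163, edgeR) and XM_006522426.3 of *Gsk3b* (FDR 0.342, edgeR).

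**Figure D3:**
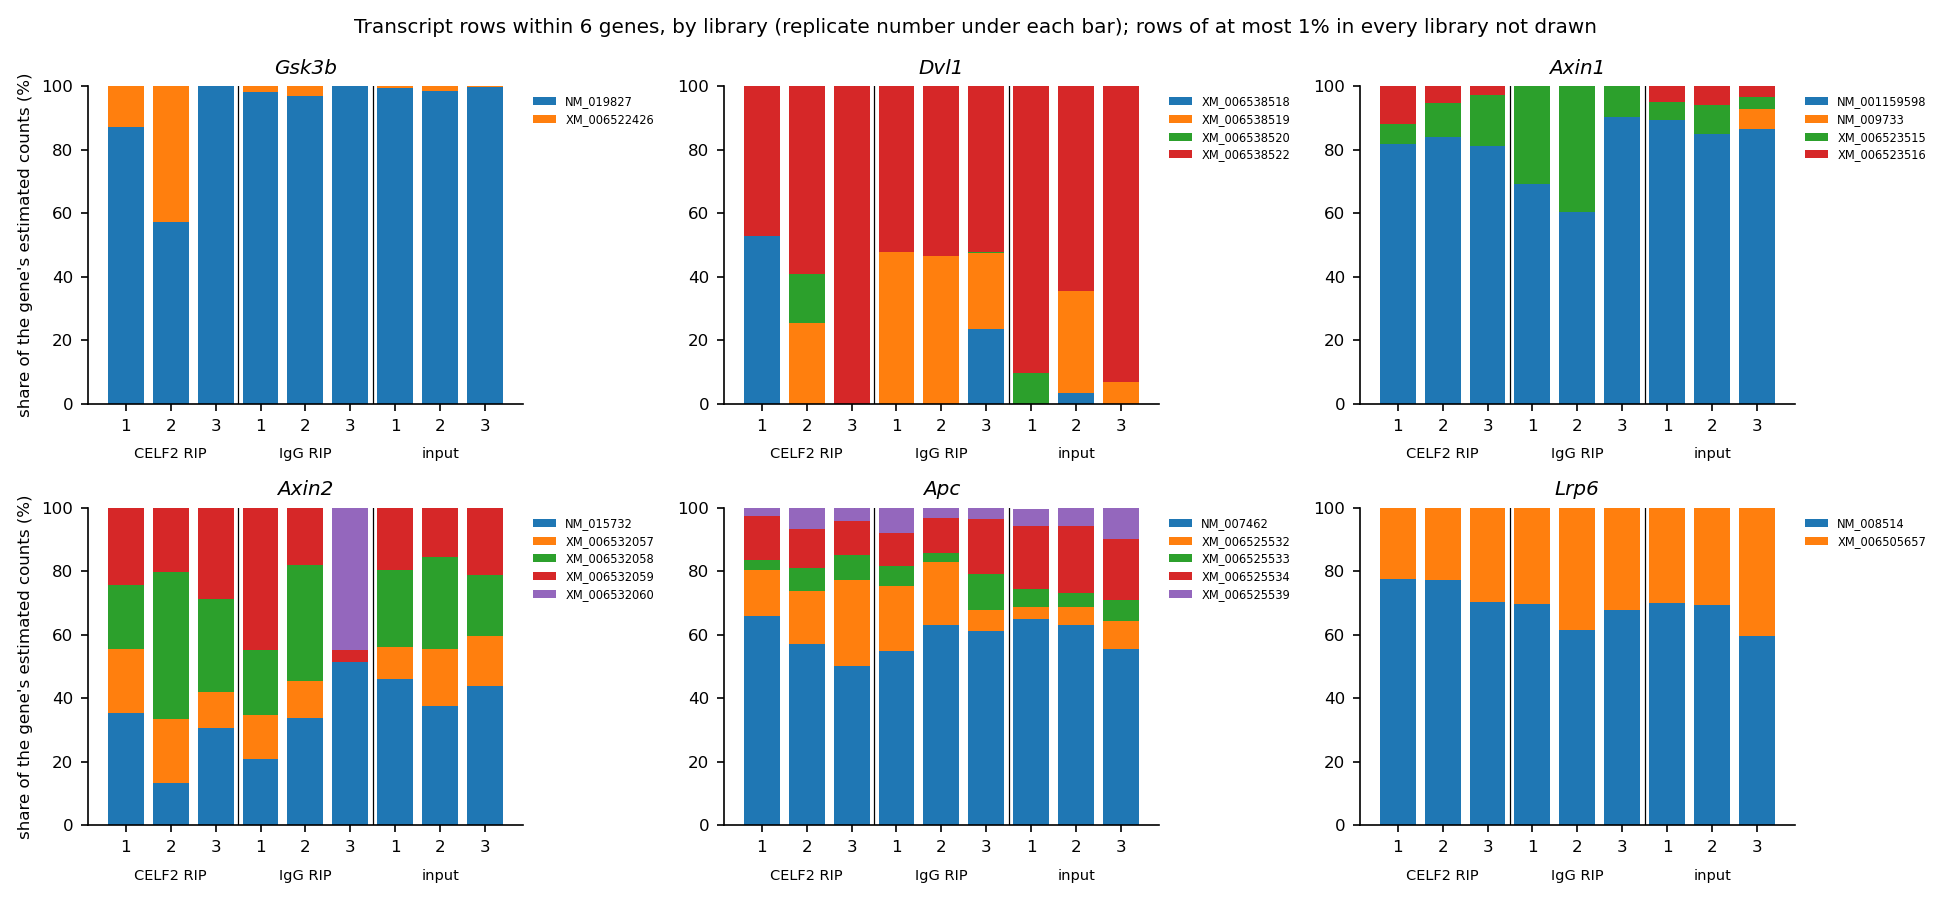
Share of a gene's estimated counts on each of its transcript rows, in percent, for 6 of the genes; each bar is a library, grouped as CELF2 RIP, IgG RIP and input. The predicted *Gsk3b* row takes up to 42.8% in CELF2 RIP and at most 3.15% in the IgG RIPs, and XM_006525532 of *Apc* takes 14.5% to 26.9% in CELF2 RIP, 6.58% to 20.5% in the IgG RIPs and 3.92% to 8.77% in the inputs.

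Ratios of related genes within a library do not depend on the scaling between libraries. Transcript lengths were not used here, so the ratios compare groups and not the levels of the genes with each other. The 12 comparisons of 6 ratios used exact two-sided permutation tests of 3 libraries against 3, which cannot go below p = 0.1, and the smallest adjusted p was 0.15. The log2 ratio of *Dvl1* to *Dvl3* was −2.09 ± 1.19 (SD, n = 3) in CELF2 RIP, 1.58 ± 0.42 in the IgG RIPs and −2.62 ± 0.32 in the inputs. It was lower in CELF2 RIP than in IgG RIP by a factor of 12.7, with no overlap (exact permutation p = 0.1, adjusted 0.15), and overlapped with input. Without CELF2 RIP replicate 3, the library with the lowest *Dvl1* level among the CELF2 RIPs, the factor over IgG RIP was 8.0. *Dvl2* to *Dvl3* differed from IgG RIP in the same direction, by −1.91 on the log2 scale (exact permutation p = 0.1, adjusted 0.15). Over input its difference was −0.34 (exact permutation p = 0.1, adjusted 0.15), while that of *Dvl1* to *Dvl3* was 0.53 (exact permutation p = 0.6, adjusted 0.6).

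*Gsk3b* to *Gsk3a* was at 0.65, 2.83 and 1.05 on the log2 scale in CELF2 RIP, 1.11, 0.47 and 0.08 in the IgG RIPs, and −0.52, −0.31 and −0.48 in input. CELF2 RIP was above input in every library, by 1.95 (exact permutation p = 0.1, adjusted 0.15), and overlapped with IgG RIP, with a difference of 0.96 (exact permutation p = 0.3, adjusted 0.327). Without CELF2 RIP replicate 2 the differences were 1.29 over input and 0.30 over IgG RIP. *Lrp6* to *Lrp5*, its paralog and fellow Wnt coreceptor, was 2.30, 3.20 and 2.57 in CELF2 RIP, 1.68, 1.43 and 1.53 in the IgG RIPs, and 1.34, 1.37 and 1.12 in input. CELF2 RIP was above both controls in every library, by 1.14 and 1.41 (exact permutation p = 0.1, adjusted 0.15, for each). *Axin2* to *Axin1* was lower in CELF2 RIP than in IgG RIP by a difference of −0.66 with no overlap (exact permutation p = 0.1, adjusted 0.15) and overlapped with input, with a difference of −0.15 (exact permutation p = 0.2, adjusted 0.24).

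**Figure D4:**
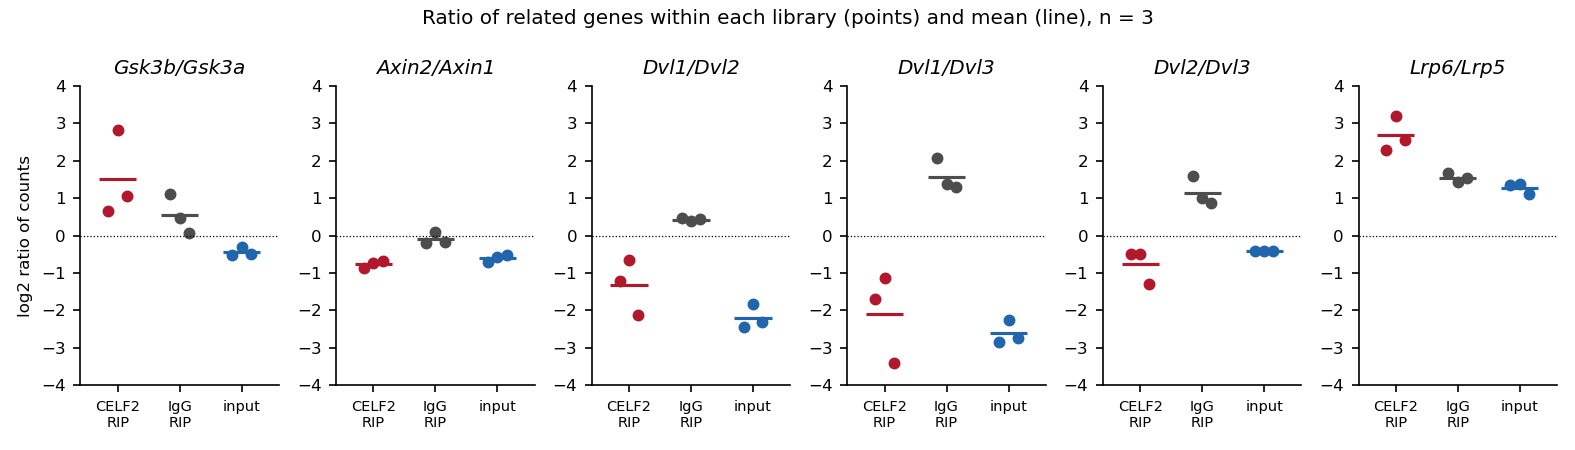
Log2 ratio of counts of 6 gene pairs in each library (points) with the group mean (lines, n = 3) for CELF2 RIP, IgG RIP and input. In the 3 pairs of Dishevelled genes the IgG RIPs lie above all other libraries, and in *Lrp6*/*Lrp5* the CELF2 RIPs lie highest, between 2.30 and 3.20.

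Around these 10 genes, 67 further Wnt pathway genes were listed by role, and 66 of them were tested. Over IgG RIP 15 were called higher and 2 lower, where 13.4% and 13.5% of all tested genes were. Over input 14 were higher and 4 lower, beside 14.6% and 15.5% of all genes. Higher than both controls were 9 of the 66 and lower than both were 2, where 7.58% and 9.52% of all tested genes were. Of 13 further coreceptors and membrane regulators, 3 were higher than IgG RIP, 1 was higher than input and 0 were lower than either, with a median log2 change of 0.41 over IgG RIP and 0.70 over input. *Znrf3*, a membrane ubiquitin ligase that removes Frizzled from the surface, was higher than both (1.61 and 1.47).

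Of 14 further destruction complex and turnover genes, 5 were higher than IgG RIP and 4 higher than input, with 0 lower, and the medians were 0.78 and 0.82. Higher than both were *Csnk1d*, which encodes a casein kinase 1 (1.60 and 1.59), *Fbxw11*, whose product recognizes phosphorylated β-catenin for ubiquitination (1.21 and 1.12), and *Tnks2*, a tankyrase that marks AXIN for turnover (1.02 and 1.26). Of 14 nuclear effectors, 4 were higher than IgG RIP and 1 lower, and 2 were higher than input and 1 lower, with medians of 0.65 and 0.63. The β-catenin coactivators *Bcl9* (1.13 and 1.09) and *Pygo2* (1.58 and 1.26) were higher than both controls, and *Cby1*, an antagonist of β-catenin, was lower than both (−2.43 and −3.21).

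Of 8 feedback and target genes of β-catenin, 7 were tested, the exception being *Dkk1*. They were spread in both directions, with 1 higher and 1 lower than IgG RIP, 1 higher and 3 lower than input, and medians of −0.52 and −0.82. *Ccnd1*, which encodes cyclin D1, was higher than both controls (1.87 and 1.06), and *Sp5*, a transcription factor gene induced by Wnt, was lower than both (−1.79 and −1.79). Among 12 planar polarity partners of Dishevelled, 2 were higher than IgG RIP and 6 higher than input, with 0 lower, and the medians were 0.45 and 0.95. These included *Vangl2*, a core polarity membrane protein gene (1.55 and 1.50), and *Dact1*, whose product binds Dishevelled (1.26 and 1.18). None of 6 cadherin and catenin partners of β-catenin was called in either comparison by edgeR, and their medians were 0.02 and 0.03. Past the FDR in both comparisons but under 2-fold, *Jup* fell (−0.84 and −0.96, edgeR FDR 0.000871 and 0.00031), *Ctnna1* fell (−0.86 and −0.99, edgeR FDR 0.00646 and 0.00246) and *Ctnnd1* rose (0.50 and 0.69, edgeR FDR 0.00835 and 0.00117). These genes were picked out after their values were seen.

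**Figure D5:**
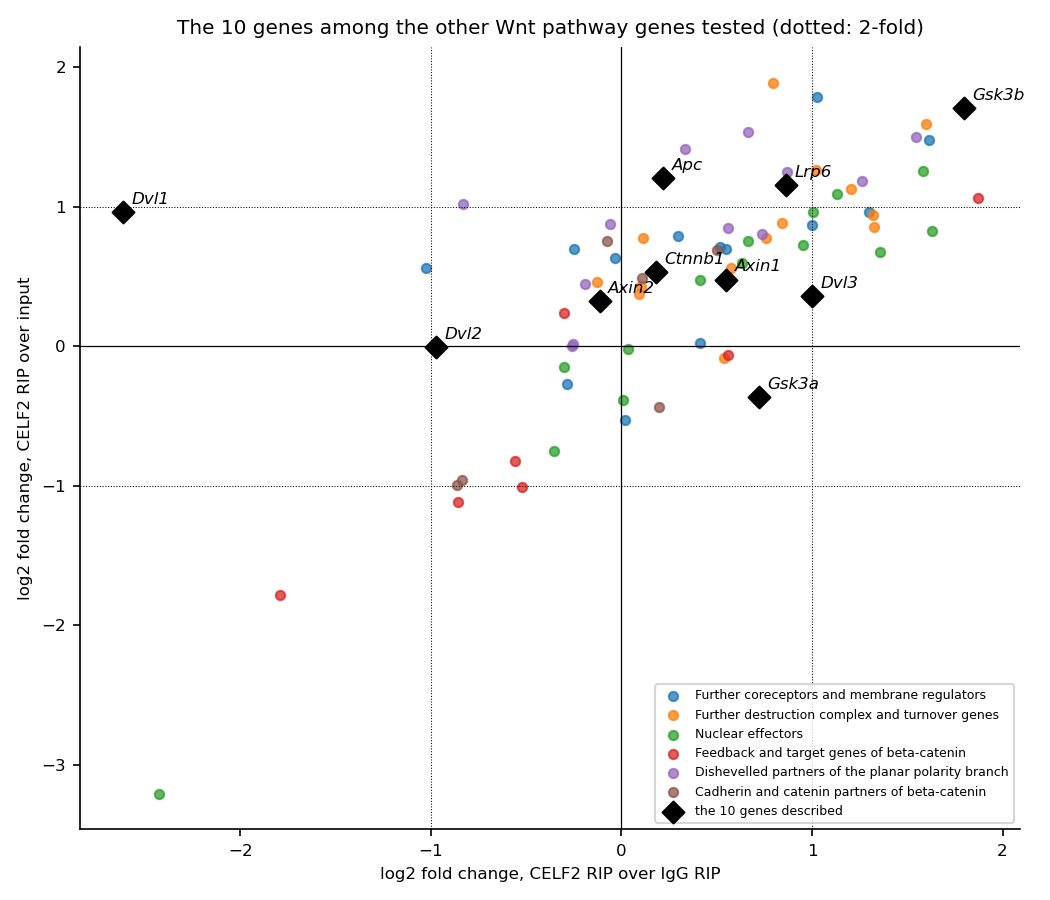
Log2 fold change of CELF2 RIP over IgG RIP (horizontal) and over input (vertical) for the 10 genes described (black diamonds) and the 66 other Wnt pathway genes tested (circles, coloured by list); both axes share the CELF2 RIP libraries. *Gsk3b* lies at the upper right, at 1.80 and 1.70, and *Dvl1* far to the left, at −2.61 and 0.96.

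By the root mean square difference of log2 CPM over the 9 libraries, each gene centred on its mean, the genes most like *Gsk3b* were *Klf11* (0.17), *Vangl2* (0.18) and *Mapk1ip1l* (0.19). Their log2 changes over IgG RIP were 1.86, 1.55 and 1.65. For *Dvl1* the nearest were more distant, namely *Tex47* (0.47), *Gm31606* (0.49) and *Copg2* (0.50), with mean levels of 7.94, 299 and 543 CPM in IgG RIP against 0.849, 29.2 and 71.9 CPM in the inputs. The nearest genes of both were picked on these same libraries, so similar differences between groups follow from the choice.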

How the data were processed

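Per the labels and the study's methods, rRNA was depleted, directional libraries were sequenced, reads were trimmed with fastp 0.23.4, residual rRNA reads were removed with Ribodetector 0.3.1, and transcripts were quantified with Kallisto 0.51.1. The authors deposited estimated counts (expected counts) per RefSeq transcript and library, not normalized for depth or length; the methods name Ensembl as the transcriptome source. The submitters' processing notes name mm10. All 9 columns were used and 0 left out.

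Gene names and coordinates came from a RefSeq table of GRCm38.p6, joined on the accession without its version; 20670 rows had no match. Gene sums of the estimated counts were rounded to integers. Protein-coding genes reaching 0.5 CPM in 3 or more libraries entered edgeR 4.0.16 (R 4.3.3; limma 3.58.1), with TMM scaling and a mean per group over all 9 libraries, by the quasi-likelihood test with Benjamini-Hochberg adjustment over all genes. CPM values use TMM-scaled library sizes, whose factors were 0.771 to 0.878 (CELF2 RIP), 1.05 to 1.08 (IgG RIP) and 1.12 to 1.16 (input). Rows were tested likewise, with scaling factors of their own, and row usage with diffSpliceDGE. Ratios used the summed counts, with 0.5 counts added as an alternative. Alternatives were other scalings, DESeq2 1.42.0, no filter, glmTreat, a replicate block, curated rows only, only the groups compared, and leaving out each library. The steps were tested on simulated data. A floor of 3 counts per library was used for bounds. Standard errors cover the spread of these libraries, and floors cover counting error only, since reads carry no molecular identifiers.

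The members and lists were chosen with earlier results of these data known. All 10 members, pathway genes called in the same direction against both controls (up to 4 a list), and the 3 genes nearest to the members with the largest and smallest change over IgG RIP are named. *Jup*, *Ctnna1* and *Ctnnd1* were named outside this rule, past the FDR in both comparisons but under 2-fold. Such genes of the other lists were not named. Replicates differed by more than sampling noise (chi-square per gene 11.9 to 44.1). Deviations from the group means of same-numbered libraries correlated across 11532 genes, which are not independent replicates, at 0.179, 0.156 and 0.245 between CELF2 RIP and input, −0.133, 0.070 and −0.058 for CELF2 RIP with IgG RIP, and 0.126, 0.122 and 0.048 for IgG RIP with input. Differently numbered libraries were not compared in this way, so whether the numbers pair the samples was not settled. The main fits and the ratio tests took the libraries as unpaired. Reads were not analysed here.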

Additional observations from a re-analysis of the deposited data

How the results depend on the processing

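Of the fitted changes of the 10 genes under the alternatives, 488 kept their direction and side of the threshold, 22 newly passed it, 15 no longer did and 12 changed sign, none of these last a call. The sign changes were, over IgG RIP, *Ctnnb1* (−0.18 with total counts, −0.080 with upper quartile) and *Apc* (−0.15 and −0.044). Over input they were *Axin2* (−0.14 with total counts, −0.37 with curated rows only), *Gsk3a* (0.19 with curated rows only), *Dvl2* (−0.17 to 0.081 without each library in turn, above 0 without CELF2 RIP replicate 2 or 3) and *Dvl3* (−0.094 with total counts), and for IgG RIP over input *Gsk3b* (0.018 with curated rows only and −0.25 to 0.023 without each library, above 0 without IgG RIP replicate 3). The single curated row of *Gsk3a* held at most 11.1% of the gene's counts in any library. Its change over input as a row had an SE of 2.65. With glmTreat, which tests against 2-fold itself, 0 genes were called higher than IgG RIP, input or both, and 0 lower in IgG RIP than in input. Lower than IgG RIP were 2 genes (*Dvl2* joined) with DESeq2 size factors, total counts, upper quartile, the DESeq2 Wald test, no filter and only the groups compared. Among all genes, these settings called 1763 (only the groups compared) to 3421 (total counts) lower than IgG RIP, where the main fit called 2066. With curated rows only, *Dvl1* has no counts, the gene called lower than IgG RIP was *Dvl2*, and 0 genes were lower in IgG RIP than in input. Of the 14461 genes tested in that setting, 1770 were lower than IgG RIP and 402 lower in IgG RIP than in input. Higher than input was 1 gene with total counts, upper quartile and only the groups compared, and higher in IgG RIP than in input were 2 with upper quartile. Of all 15263 tested genes, 531, 1177 and 1420 were higher than input in these settings, in that order. With upper quartile, 1102 were higher in IgG RIP than in input.

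Leaving out each library in turn gave 1 to 3 genes higher and 1 to 2 lower than IgG RIP, 2 to 4 higher than input, 1 to 2 higher and 0 to 1 lower in IgG RIP than in input, and 1 to 2 higher than both controls, the second being *Lrp6* without CELF2 RIP replicate 1. Of all 15263 tested genes, these fits called 1678 to 2230 higher and 1744 to 2284 lower than IgG RIP. They called 1480 to 2537 higher than input, and 573 to 1557 higher and 526 to 1116 lower in IgG RIP than in input. *Dvl1* passed 2-fold over input without CELF2 RIP replicate 3 (1.29). Called rows over IgG RIP numbered 0 to 1 higher and 1 to 2 lower without each library, and 1 higher with total counts and with no filter. With the replicate block, 0 rows were called higher and 0 lower than IgG RIP. Whether the replicate numbers pair these samples is not known. The block changed no call of a gene sum; *Gsk3b* was then at 1.70 over IgG RIP and 1.61 over input. The cause of these changes was not tested. With 3 libraries a group, the 95% interval of *Dvl1* over IgG RIP ran from −3.41 to −1.81 and that of *Gsk3b* from 1.05 to 2.54.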
